A study of Mus musculus with 41 samples.

Results

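The expression of 10 genes of the LIF-STAT3 pathway was examined in mouse androgenetic haploid embryonic stem cells (AG-haESCs), which carry only a paternal genome, by RNA-seq. The 10 genes, chosen by name for their place in the pathway, were the receptor subunits Lifr and Il6st, the kinases Jak1 and Jak2, the transcription factor Stat3, the feedback inhibitor Socs3, and the target genes Junb, Pim1, Pim3 and Gbx2. All 10 were found among the 24028 gene symbols. The 13 libraries came from haploid cells sorted from cultures kept on ICR embryonic fibroblast feeders, and every label gives the strain as C57BL/6.

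Every culture received LIF at 1000 U/mL and the GSK3 inhibitor CHIR99021 at 3 µM. The 2i/L medium also held the MEK inhibitor PD0325901 at 1 µM and 15% FBS. The SF/a2i/L medium was free of serum and held the Src inhibitor CGP77675 at 1.5 µM in place of PD0325901. The base media differed too, with DMEM in 2i/L and a mix containing Neurobasal and cell supplements in SF/a2i/L. Inhibitor, serum and base medium therefore cannot be told apart. Wild-type 2i-14 cells in 2i/L gave 3 libraries (passages 18, 39 and 50). Wild-type TSa2i/L cells, derived with CGP77675 and serum and then moved to SF/a2i/L, gave 5 libraries from TSa2i-14 (passages 22, 47 and 54) and TSa2i-C57 (passages 9 and 58). In 2i/L there were also 2i-O48, in which H19-DMR and IG-DMR were deleted, and 2i-O48-TKO, in which H19 was deleted as well, with 1 library each. The switched group comprised 1 library of each of the 3 lines from 2i/L after 5 passages in SF/a2i/L. Since the labels give no passage for the switched cells, the control of switched 2i-14 was a choice, and 2i-14 p50, the latest passage in 2i/L, was used. The values of these lines are given in the order 2i-14, then 2i-O48, then 2i-O48-TKO. Since 2i-14 was the only wild-type line in 2i/L, medium and line cannot be told apart in the wild-type comparison, and libraries of a line are passages of it, so that p-values measure the spread between these cultures. Values are FPKM, in which fragment numbers are scaled for transcript length and for the mapped depth of the library and which therefore allow levels to be compared between genes.

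LIF binds a receptor made of LIFR and gp130 (encoded by Il6st), which brings the receptor-bound JAK kinases together. The JAKs phosphorylate STAT3, which then dimerises, enters the nucleus and activates its targets, among them Socs3, whose product shuts the receptor down. In mouse ES cells this pathway maintains self-renewal, and the mRNA levels given here do not measure STAT3 phosphorylation.

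All 8 ES cell markers examined, including Pou5f1, Sox2 and Nanog, were at an FPKM of at least 1 in all 13 libraries. Of these 8, Nanog was called lower after the switch (log2 difference -0.93, limma adjusted p = 0.0483), and 0 were called in the other comparisons. Of 15 fibroblast markers, 10 to 13 reached this level in 2i-14 p39, TSa2i-14 p54 and TSa2i-C57 p58, and 0 to 3 in the other 10 libraries. At most 1 of 6 primitive endoderm and 2 of 4 trophoblast markers did so in any library. The summed FPKM lay between 651115 and 871848 in 12 libraries and reached 2146932 in switched 2i-14, so this library stood apart. Depth, estimated from the spacing of the low FPKM values, was about 12900000 to 20000000 fragments a library.

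STAT dimers recognise the palindrome TTCNNNGAA, and the 250 bases upstream of each annotated start were searched for it in RefSeq sequence (GRCm38.p6). All 10 genes had an entry, with 12 windows in all, and the motif was found in 1 window, that of Socs3. Among 32851 windows of the same length over all genes, 7.02% held it. The stricter form TTCCNGGAA, which is contained in the first, was found in 0 of the 12 windows and in 0.913% of all windows. Since both motifs read the same on either strand, a search of 1 strand covers both. The Socs3 window is shown as the match among the 10 genes. The windows of Zfp36 and Pramel7 are shown because these were the other pathway genes that passed the test in wild-type TSa2i/L against 2i/L cells. Sequences run 5′ to 3′ on the strand of the gene, with TTCNNNGAA matches in capitals.
Socs3 (chr11:117969367-117969616, minus strand): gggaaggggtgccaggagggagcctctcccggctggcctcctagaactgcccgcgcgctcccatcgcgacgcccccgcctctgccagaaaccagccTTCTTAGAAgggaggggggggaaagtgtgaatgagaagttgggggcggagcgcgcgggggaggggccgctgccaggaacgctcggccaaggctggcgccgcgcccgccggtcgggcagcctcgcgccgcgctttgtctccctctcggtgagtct
Zfp36 (chr7:28379229-28379478, minus strand): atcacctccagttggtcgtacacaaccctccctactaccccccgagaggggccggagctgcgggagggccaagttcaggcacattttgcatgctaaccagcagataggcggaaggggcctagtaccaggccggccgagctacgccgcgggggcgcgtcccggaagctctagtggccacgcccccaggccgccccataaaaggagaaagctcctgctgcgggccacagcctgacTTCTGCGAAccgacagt
Pramel7 (chr2:87492419-87492668, minus strand): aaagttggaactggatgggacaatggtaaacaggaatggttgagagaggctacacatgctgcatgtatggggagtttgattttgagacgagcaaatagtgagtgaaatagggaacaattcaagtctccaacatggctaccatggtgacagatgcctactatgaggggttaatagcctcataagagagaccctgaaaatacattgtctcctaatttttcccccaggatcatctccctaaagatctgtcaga
The match in Socs3, TTCTTAGAA, began at position -154, counted back from the start, and that in Zfp36, TTCTGCGAA, began at position -17. The Pramel7 window held no match. The windows of Bcl3 and Ptpn6, which passed the test after the switch, were also searched, held no match and are not shown. A match or its absence says only which letters are in the window.

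Across the 13 libraries the 10 genes were expressed at low to moderate levels. Pim3 had the highest mean (17.1 FPKM), and its lowest library (10.8 FPKM) lay above the highest library of any of the other 9 genes (9.47 FPKM, Stat3 in TSa2i-14 p47). Stat3 (mean 5.61 FPKM) and Jak1 (4.99 FPKM) came next, with overlapping ranges. Junb (3.29 FPKM), Il6st (3.24 FPKM), Socs3 (2.61 FPKM), Lifr (2.43 FPKM), Gbx2 (1.52 FPKM) and Pim1 (1.09 FPKM) followed, and each overlapped its neighbours in this order. Jak2 was lowest, with a mean of 0.624 FPKM. The ratio of the highest to the lowest library was 1.78 for Lifr and 2.00 for Jak1, but 5.39 for Junb, 7.63 for Gbx2 and 12.4 for Jak2. The low genes rested on few fragments, about 10 to 104 a library for Jak2, 12 to 55 for Pim1 and 25 to 293 for Gbx2, against 443 to 848 for Pim3.

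**Figure D1:**
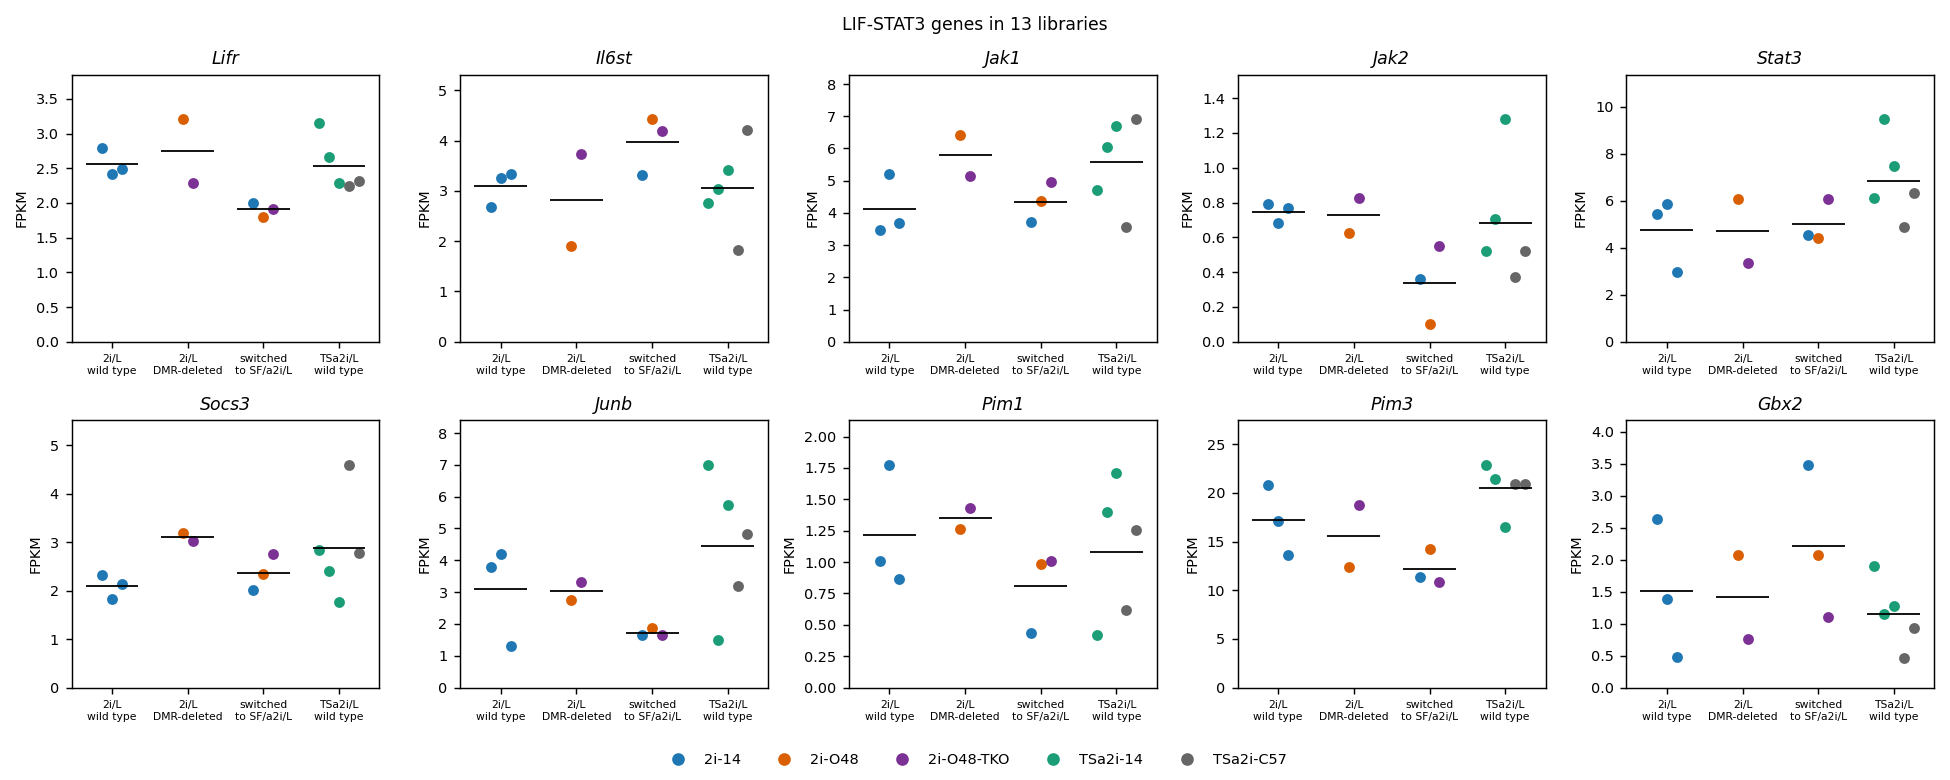
FPKM of the 10 LIF-STAT3 genes (vertical axes, each from 0) in the 13 libraries by group, with a point for each library coloured by cell line and a line at the group mean. The wild-type 2i/L and TSa2i/L points overlap for all 10 genes, and the 3 switched libraries lie below the other libraries for Lifr.

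None of the 9 genes that could be tested passed in any of 3 comparisons. In wild-type TSa2i/L against 2i/L cells, 9 genes were tested and 0 were called (limma on log2(FPKM + 1), Benjamini-Hochberg adjusted p under 0.05), where 7.57% of all 10387 genes tested were called (5.72% higher and 1.85% lower). In switched cells against the same lines in 2i/L, 0 of 9 were called against 6.89% of 9759 genes (2.22% higher and 4.66% lower). In late against early passages in TSa2i/L, 0 of 9 were called against 0% of 10502 genes. At an unadjusted p under 0.05 the counts were 0, 0 and 2 of 9, beside 23.1%, 26.1% and 8.84% of all genes. Jak2 fell below the expression filter in each comparison. Since the tests rest on few cultures, 95% intervals are given below. They reflect the spread between these cultures on log2(FPKM + 1) and do not bound a change across other lines, as wild-type 2i/L had 1 line. The scale matters for low genes. With a pseudocount of 0.1 in place of 1, the late against early difference of Pim1 was 1.34, above its interval of 0.23 to 1.15.

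Lifr (chr15:7079559-7147489, plus strand, in the mm9 annotation) encodes the LIF-specific receptor subunit. The 2i-14 libraries at p18, p39 and p50 in 2i/L measured 2.80, 2.42 and 2.48 FPKM. TSa2i-14 p22, p47 and p54 had 3.16, 2.67 and 2.29 FPKM, and TSa2i-C57 p9 and p58 had 2.24 and 2.31 FPKM. The 2 wild-type groups thus overlapped, with a log2 difference of -0.02 (95% interval -0.38 to 0.35, adjusted p = 0.966). Among the DMR-deleted lines in 2i/L, 2i-O48 had 3.21 FPKM and 2i-O48-TKO had 2.28 FPKM, and the switched libraries had 2.00, 1.80 and 1.92 FPKM. All 3 switched libraries were lower than every other library, and Lifr was the only one of the 9 tested genes whose switched and 2i/L libraries did not overlap, which was so for 31.3% of all genes. The log2 difference of -0.32 (SE 0.19, 95% interval -0.79 to 0.14) did not pass the test (adjusted p = 0.344), although the value was lower in 3 of 3 lines.

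Il6st (chr13:113265216-113297068, plus strand) encodes gp130, the signalling subunit shared by the receptors of the IL-6 family. It was at 2.68, 3.26 and 3.33 FPKM in the 2i-14 libraries in 2i/L, and at 2.76, 3.03 and 3.42 FPKM in TSa2i-14. TSa2i-C57 held the lowest and the second highest of the 13 values, 1.82 FPKM at p9 and 4.22 FPKM at p58. The wild-type groups overlapped (log2 difference -0.04, 95% interval -0.50 to 0.43, adjusted p = 0.944). In 2i-O48 Il6st measured 1.91 FPKM before and 4.43 FPKM after the switch, in 2i-O48-TKO 3.73 and 4.20 FPKM, and in 2i-14 3.33 FPKM at p50 and 3.31 FPKM after the switch. The log2 difference over the lines was 0.34 (95% interval -0.25 to 0.93, adjusted p = 0.423), with changes of -0.006, 0.90 and 0.13 in the 3 lines. Without 2i-O48 it was 0.064.

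Jak1 (chr4:100824972-100937887, minus strand) encodes a kinase that phosphorylates gp130 and STAT3. Its values were 3.45, 5.20 and 3.70 FPKM in the 2i-14 libraries in 2i/L. They were 4.70, 6.03 and 6.71 FPKM in TSa2i-14, and 3.55 and 6.91 FPKM in TSa2i-C57. The wild-type groups overlapped, and the log2 difference of 0.35 (95% interval -0.15 to 0.84) did not pass the test (adjusted p = 0.402). After the switch Jak1 was at 3.71, 4.36 and 4.97 FPKM, against 3.70, 6.43 and 5.14 FPKM in 2i/L (log2 difference -0.17, 95% interval -0.68 to 0.34, adjusted p = 0.655).

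Jak2 (chr19:29326318-29387570, plus strand) encodes a related receptor-bound kinase. It was at 0.791, 0.680 and 0.770 FPKM in 2i-14 in 2i/L, and between 0.373 and 1.28 FPKM in TSa2i/L. The 3 switched libraries had 0.361, 0.103 and 0.550 FPKM, each below its own line in 2i/L (0.770, 0.627 and 0.828 FPKM). When genes were not filtered, Jak2 had a log2 difference of -0.39 after the switch (95% interval -0.68 to -0.11, adjusted p = 0.213). The unadjusted p of Jak2 was 0.0191 (limma). In that fit 0 of all 18837 genes passed, so missing the threshold says nothing particular to Jak2. Its lowest library, switched 2i-O48, held about 10 fragments.

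Stat3 (chr11:100746412-100800854, minus strand) encodes the transcription factor that carries the signal to the nucleus. In 2i/L the 2i-14 libraries at p18, p39 and p50 measured 5.45, 5.85 and 2.96 FPKM, a mean of 4.75 ± 1.57 FPKM (SD, n = 3). In TSa2i/L it measured 6.10, 9.47 and 7.46 FPKM in TSa2i-14 and 4.89 and 6.33 FPKM in TSa2i-C57, a mean of 6.85 ± 1.73 FPKM (SD, n = 5). Of the 5 TSa2i/L libraries, TSa2i-C57 p9 lay within the range of the 2i/L libraries and the other 4 lay above it. The log2 difference of 0.46 (SE 0.24, 95% interval -0.07 to 1.00) did not pass the test (adjusted p = 0.290). It depended on 2i-14 p50, without which it was 0.21. After the switch Stat3 was at 4.53, 4.40 and 6.09 FPKM, higher than in 2i/L in 2i-O48-TKO (3.33 FPKM) and lower in 2i-O48 (6.06 FPKM). Switched 2i-14 lay above 2i-14 p50 and below p18 and p39. The log2 difference was 0.27 (95% interval -0.38 to 0.91, adjusted p = 0.564), and 0.034 or 0.0052 when p18 or p39 was the control of 2i-14.

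Socs3 (chr11:117827393-117831361, minus strand) encodes the inhibitor that binds gp130 and the JAKs. It was at 2.32, 1.83 and 2.13 FPKM in 2i-14 in 2i/L. In TSa2i/L it ranged from 1.77 FPKM in TSa2i-14 p54 to 4.59 FPKM in TSa2i-C57 p9, with 2.84, 2.40 and 2.78 FPKM in TSa2i-14 p22, p47 and TSa2i-C57 p58. The TSa2i/L libraries spread on both sides of the 2i/L libraries, and the log2 difference was 0.29 (95% interval -0.20 to 0.78, adjusted p = 0.490). In the DMR-deleted lines Socs3 was at 3.19 FPKM (2i-O48) and 3.02 FPKM (2i-O48-TKO), above all 3 libraries of 2i-14 in 2i/L. It was at 2.01, 2.34 and 2.75 FPKM in the switched libraries, with a log2 difference of -0.16 (95% interval -0.62 to 0.29, adjusted p = 0.629). With median centring the log2 difference was 0.0032. The genes whose log2(FPKM + 1) was most like that of Socs3 over the 13 libraries, searched over 6312 genes whose mean FPKM reached 5, were Spa17 (Pearson r = 0.837), Napepld (0.794) and Gtf2a1 (0.768). For Lifr they were Ctps (0.928), Ilf2 (0.925) and Exosc10 (0.916). These correlations are descriptions over libraries that share lines and media.

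None of the 4 target genes passed the test. Junb (chr8:87500811-87502617, minus strand), an AP-1 transcription factor, was at 3.78 FPKM in 2i-14 p18, 4.21 FPKM at p39 and 1.30 FPKM at p50. It was at 6.999, 1.50 and 5.75 FPKM in TSa2i-14 p22, p47 and p54 and at 3.20 and 4.82 FPKM in TSa2i-C57 p9 and p58. The spread within each group was thus several-fold, and the log2 difference of 0.39 had a 95% interval from -0.44 to 1.23 (adjusted p = 0.601). It was 0.019 without 2i-14 p50 and 0.65 without TSa2i-14 p47. The switched libraries were close together, at 1.65, 1.87 and 1.64 FPKM, below 2i-O48 (2.74 FPKM) and 2i-O48-TKO (3.32 FPKM) and above 2i-14 p50. The log2 difference after the switch was -0.30 (95% interval -0.86 to 0.26, adjusted p = 0.459). With 2i-14 p18 or p39 as the control of 2i-14 it was -0.65 or -0.69, still above the threshold (adjusted p = 0.0658 and 0.0607).

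Pim1 (chr17:29627757-29632390, plus strand) and Pim3 (chr15:88692616-88696150, plus strand) encode serine/threonine kinases that promote survival and self-renewal. Pim1 measured 1.01, 1.77 and 0.863 FPKM in 2i-14 in 2i/L. It measured 0.419, 1.40 and 1.71 FPKM in TSa2i-14 and 0.620 and 1.26 FPKM in TSa2i-C57. Of the TSa2i/L libraries 2 were below and 3 within the range of the 2i/L libraries, and the log2 difference was -0.11 (95% interval -0.64 to 0.42, adjusted p = 0.842). After the switch Pim1 was at 0.437, 0.988 and 1.01 FPKM, lower than in 2i/L in 3 of 3 lines (0.863, 1.26 and 1.43 FPKM), without passing the test (log2 difference -0.28, 95% interval -0.68 to 0.12, adjusted p = 0.339).

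Pim3 was at 20.8, 17.1 and 13.6 FPKM in 2i-14 in 2i/L, a mean of 17.2 ± 3.63 FPKM (SD, n = 3). It was at 22.9, 21.4 and 16.5 FPKM in TSa2i-14 and at 20.9 FPKM in both TSa2i-C57 libraries, a mean of 20.5 ± 2.39 FPKM (SD, n = 5). The groups overlapped through TSa2i-14 p54 alone, which lay below 2i-14 p18 and p39. The log2 difference was 0.26 (95% interval -0.15 to 0.66, adjusted p = 0.454). It was 0.11 without 2i-14 p50 and 0.40 without 2i-14 p18. In the switched libraries Pim3 was at 11.3, 14.2 and 10.8 FPKM, lower than in 2i/L in 2i-14 (13.6 FPKM) and 2i-O48-TKO (18.7 FPKM) and higher in 2i-O48 (12.4 FPKM). The log2 difference of -0.27 did not pass the test (95% interval -0.85 to 0.32, adjusted p = 0.532), and it was -0.027 without 2i-O48-TKO.

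Gbx2 (chr1:91824537-91829865, minus strand), a homeobox factor known to maintain mouse ES cells downstream of STAT3, was at 2.64 FPKM in 2i-14 p18, 1.38 FPKM at p39 and 0.484 FPKM at p50. It was at 1.90, 1.15 and 1.28 FPKM in TSa2i-14 and at 0.456 and 0.938 FPKM in TSa2i-C57. Both wild-type groups covered much the same range (log2 difference -0.16, 95% interval -0.80 to 0.47, adjusted p = 0.795). After the switch Gbx2 was at 3.48, 2.08 and 1.10 FPKM, against 0.484 (2i-14 p50), 2.07 and 0.754 FPKM in 2i/L. Switched 2i-14 was also above p18 and p39. The log2 difference over the lines was 0.62 (SE 0.32, 95% interval -0.16 to 1.40, adjusted p = 0.282), and 0.19 or 0.39 when p18 or p39 was the control of 2i-14.

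**Figure D2:**
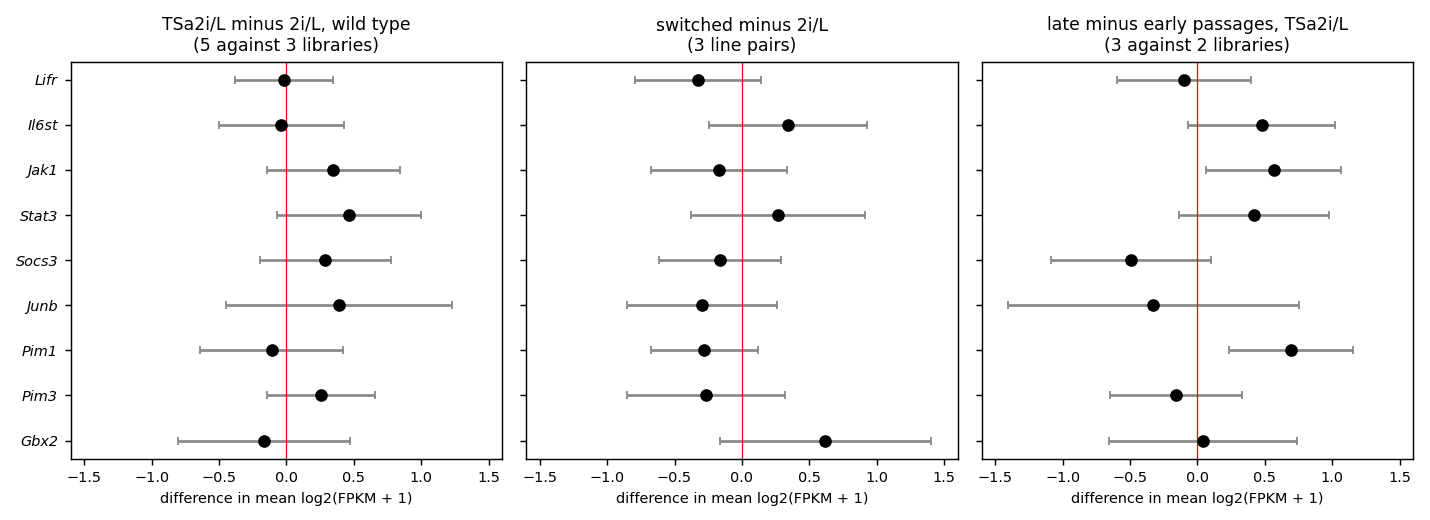
Difference in mean log2(FPKM + 1) of the 9 tested LIF-STAT3 genes (horizontal axis) with its 95% interval from limma, in wild-type TSa2i/L against 2i/L cells (left), switched cells against the same lines in 2i/L (middle) and late against early passages in TSa2i/L (right). All intervals cross 0 except those of Jak1 and Pim1 on the right, which did not pass after adjustment.

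The change after the switch varied between the lines. In wild-type 2i-14 the log2 change of Gbx2 after the switch was 1.59 from p50, 0.91 from p39 and 0.30 from p18, against 0.004 and 0.26 in the DMR-deleted lines, so the overall difference rested mainly on 1 pair, and the switched library of that pair was the one whose summed FPKM stood apart. Without 2i-14 the log2 difference of Gbx2 was 0.13. The change in 2i-14 from p50 differed from that in the DMR-deleted lines by 1.46 (limma interaction, unadjusted p = 0.0074), which did not pass after adjustment (adjusted p = 0.564). From p39 and p18 the difference was 0.78 (unadjusted p = 0.131) and 0.17 (0.740, limma), so it depended on which passage was taken as the control. Of all 9759 genes, 3 passed this interaction test with p50. The log2 values of Junb after minus before were -0.38 and -0.71 in the DMR-deleted lines. In 2i-14 they were 0.21 from p50, -0.85 from p18 and -0.97 from p39, and the difference between wild-type and DMR-deleted lines did not pass (adjusted p = 0.873 with p50). On the deposited scale, Lifr, Jak2 and Pim1 were lower in 3 of 3 lines and Gbx2 was higher in 3 of 3, whichever passage was the control of 2i-14. The rise of Gbx2 in 2i-O48 was only 0.004, and the share of all genes moving alike in 3 of 3 lines was not computed. With median centring the log2 differences over the lines were -0.16 for Lifr and -0.11 for Pim1. Socs3 was lower in 3 of 3 lines with p50 or p18 and in 2 of 3 with p39. With 1 wild-type line and 2 related DMR-deleted lines, genotype and line cannot be told apart.

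**Figure D3:**
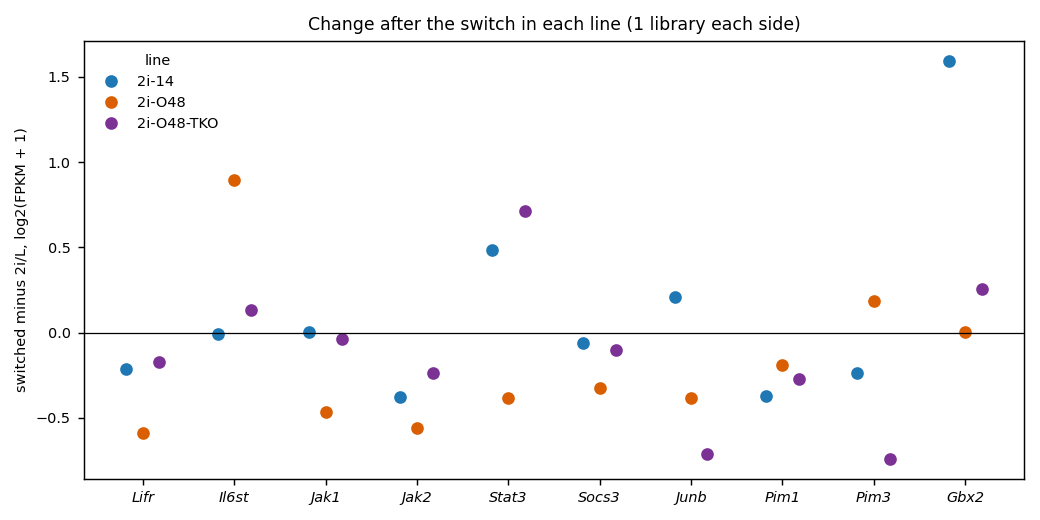
Change in log2(FPKM + 1) of each LIF-STAT3 gene from 2i/L to 5 passages in SF/a2i/L (vertical axis) for each of the 3 lines switched, from 1 library on each side, with 2i-14 p50 as the control of 2i-14. For Gbx2 the value of 2i-14 is 1.59 from p50, but 0.30 from p18 and 0.91 from p39, which are not drawn.

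Within TSa2i/L, 3 late libraries (passages 47, 54 and 58) were set against 2 early ones (passages 9 and 22), a comparison across the passage 30 boundary. The late libraries were TSa2i-14 p47 and p54 and TSa2i-C57 p58, and the early ones TSa2i-14 p22 and TSa2i-C57 p9. The lines were thus unbalanced, and the main fit did not include the line. Pim1 was at 0.419 and 0.620 FPKM early and at 1.40, 1.71 and 1.26 FPKM late, so that all 3 late libraries were higher (log2 difference 0.69, SE 0.20, 95% interval 0.23 to 1.15, adjusted p = 0.530). Jak1 was at 4.70 and 3.55 FPKM early and 6.03, 6.71 and 6.91 FPKM late (log2 difference 0.57, 95% interval 0.07 to 1.07, adjusted p = 0.535). These were the 2 genes with an unadjusted p under 0.05 (limma, 0.00881 and 0.0315), and neither passed after adjustment. With the cell line as a block, 1 of 9 genes had an unadjusted p under 0.05. Il6st and Stat3 were also higher in every late than in every early library, with log2 differences of 0.48 and 0.42 (adjusted p = 0.574 and 0.604), and Socs3 was lower in every late library, with a log2 difference of -0.49 (adjusted p = 0.583). The early and late libraries thus did not overlap for 5 of 9 genes, against 28.2% of all genes tested. Lifr, Junb, Pim3 and Gbx2 overlapped, with log2 differences of -0.10, -0.33, -0.16 and 0.04. The 10 fibroblast markers tested were all higher in the late libraries by their means (median log2 difference 1.12, 0 called), their mean log2(FPKM + 1) over the 15 listed being 0.343, 2.54 and 1.59 late and 0.277 and 0.659 early. Of the 8 ES cell markers, 5 were higher and 3 lower late, with 0 called. Klf2 (log2 difference 0.82), Esrrb (0.68) and Sox2 (0.54) were higher in every late than in every early library. The tested trophoblast and primitive endoderm markers also stood higher late. Of 4 trophoblast markers 2 were tested, Eomes (log2 difference 0.70) and Gata3 (0.69), and of 6 primitive endoderm markers 1, Dab2 (1.00). All 3 had early and late libraries that did not overlap, with 0 called (adjusted p = 0.530, 0.530 and 0.564). With the fibroblast marker mean as a covariate, 2 of 9 LIF-STAT3 genes had an unadjusted p under 0.05 (limma), and 0 of all genes were called. The part of RNA from other cells in the late values was not itself tested. Fewer cells of a type and less RNA per cell cannot be told apart in such bulk libraries.

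The rest of the pathway was described from a list of 39 further genes. Of 11 ligands and receptors of the family, 4 were tested in the wild-type comparison and 3 after the switch, and 0 were called in either. Of 15 other inhibitors, 13 and 12 were tested, with 0 called and 1 lower. Of 13 other reported targets, 13 and 12 were tested, with 1 higher and 1 lower in wild-type TSa2i/L cells and 2 lower after the switch. In late against early passages 0 of these genes were called. Over all genes tested, 7.57%, 6.89% and 0% were called in the wild-type, switch and passage comparisons. The counts of the further genes were not tested against these shares. The median log2 differences of the 9 tested LIF-STAT3 genes were 0.26, -0.17 and 0.04 in the 3 comparisons, beside 0.07, -0.09 and 0.09 over all genes.

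Among the other targets, Pramel7, which acts in the naive state of ES cells, changed most in the wild-type and switch comparisons. It was at 34.2, 14 and 12.1 FPKM in 2i-14 in 2i/L, and at 3.36, 1.77 and 4.61 FPKM in TSa2i-14 and 1.25 and 0.454 FPKM in TSa2i-C57. All 5 TSa2i/L libraries were lower than all 3 in 2i/L (log2 difference -2.69, SE 0.44, adjusted p = 0.00504). In the DMR-deleted lines in 2i/L it was at 20.03 and 10.3 FPKM, and after the switch it was listed at 0 in 2i-14 and measured 0.307 and 0.0337 FPKM in the other two lines (log2 difference -3.72, adjusted p = 0.00196). The wild-type and the switch comparison share the library of 2i-14 p50. The falls of Pramel7 in these data were known when the genes were listed. Its p-values and its place as the most changed target therefore repeat that choice.

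Zfp36, which encodes an RNA-binding protein that promotes mRNA decay, was at 1.85, 1.56 and 1.27 FPKM in 2i-14 in 2i/L. It was at 3.70, 3.46 and 3.13 FPKM in TSa2i-14 and at 3.79 and 2.73 FPKM in TSa2i-C57, so that all 5 TSa2i/L libraries were higher (log2 difference 0.77, SE 0.17, adjusted p = 0.0219). The call was lost without 2i-14 p39 (adjusted p = 0.0805) or 2i-14 p50 (0.0815), without the libraries high in feeder markers (0.143), without the filter (0.0555) and with median centring (0.0546) or quantile normalization (0.0675), while the log2 difference stayed between 0.68 and 0.85 whichever library was left out. In the switched libraries Zfp36 was at 1.08, 0.914 and 0.501 FPKM, below all 5 TSa2i/L libraries and below 2i-14 p50, 2i-O48 and 2i-O48-TKO in 2i/L (1.27, 1.25 and 1.42 FPKM), and that log2 difference of -0.35 did not pass the test (adjusted p = 0.301).

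Ptpn6, a phosphatase that dampens cytokine receptor signalling, was at 4.52, 6.33 and 7.47 FPKM after the switch and at 17.3, 10.1 and 21.3 FPKM before (log2 difference -1.24, adjusted p = 0.0487). Bcl3, an IκB family co-regulator, was at 4.65, 8.20 and 5.61 FPKM after and 9.11, 17.9 and 13.9 FPKM before (log2 difference -1.02, adjusted p = 0.0391). Both genes were lower in 3 of 3 lines. The value before the switch in 2i-14 is that of p50. It was the highest of the 2i-14 passages in 2i/L for Ptpn6 (8.66 FPKM at p18, 10.8 FPKM at p39). For Bcl3 it was the lowest (16.4 FPKM at p18, 11.6 FPKM at p39). The call of Ptpn6 was lost without 2i-14 (log2 difference -0.996, adjusted p = 0.0687) or 2i-O48-TKO (-1.16, 0.221) and in 5 other fits, with pseudocount 0.1 (adjusted p = 0.0519), no filter (0.185), a stricter filter (0.0550), median centring (0.0743) and quantile normalization (0.0742). That of Bcl3 was lost without 2i-O48-TKO (log2 difference -0.94, adjusted p = 0.301), without the filter (0.148), with quantile normalization (0.0539) and without the block (0.0688). That of Pramel7 after the switch was lost without the filter (0.143).

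**Figure D4:**
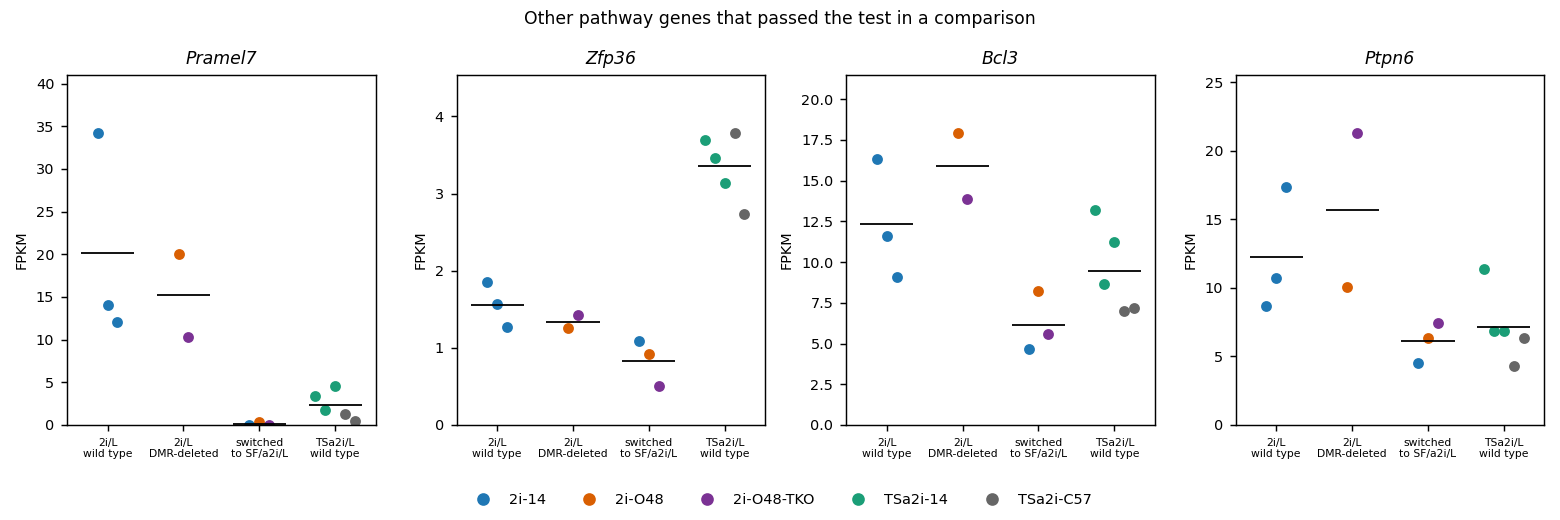
FPKM (vertical axes, each from 0) of 4 other pathway genes that passed the test in a comparison, in the 13 libraries by group, with a point for each library coloured by cell line and a line at the group mean. Pramel7, listed with its falls in these data known, is at most 0.307 FPKM in switched cells and 4.61 FPKM in TSa2i/L, against at least 10.3 FPKM in 2i/L.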

How the data were processed

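The authors amplified full-length cDNA from small numbers of haploid cells, aligned it to mm9 (TopHat) and deposited gene-level FPKM from Cufflinks. The submitters' processing notes name TopHat2 2.0.11, Bowtie2 2.2.2 and Cufflinks 2.2.1, and the annotation is not given in the sources used here. The other 28 samples of the series were not analysed here. No count model was applied, since FPKM is not a count. Each file held 24525 rows, and rows of the same symbol were summed. Groups, lines and passages came from the labels.

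Comparisons were made with limma 3.58.1 in R 4.3.3 (empirical Bayes with trend) on log2(FPKM + 1), which understates changes of low genes, over all genes that reached an FPKM of 1 in 3 libraries (2 for late against early passages), with Benjamini-Hochberg adjustment and a threshold of 0.05. The switch comparison had the cell line as a block, since the labels name the line of each culture. The deviations of paired libraries correlated at 0.17, -0.14 and 0.36 over genes for 2i-14, for 2i-O48 and for its TKO line. Depth was estimated from the FPKM step that 1 fragment makes, over 3737 genes, and covers counting error only. Positions are those of the NCBIM37 (mm9) annotation, and promoter windows are from RefSeq on GRCm38.p6. Tests were checked on simulated data drawn independently for each library. These held no structure of lines or passages, so the check does not cover the likeness of libraries of a line. All 10 genes are named, together with every one of 39 other pathway genes called in the wild-type or switch comparison, and 8 further genes that were listed are not reported here. The genes and lists were chosen with earlier results of these data known, and the falls of Pramel7 were among those results. Alternatives covered the pseudocount, the filter, scaling, the trend, repeated symbols, the control libraries (2i-14 p18 and p39 as single controls were added after seeing the data), feeder markers, the block and leaving out each library or line.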

Additional observations from a re-analysis of the deposited data

How the results depend on the processing

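The count of LIF-STAT3 genes called was 0 in all 50 fits, with a smallest adjusted p of 0.0607 (limma) and at most 3 of these genes at an unadjusted p under 0.05. In the late against early fits with 2 early libraries, 0 of all genes tested were called, except for 8 without TSa2i-14 p47. The unfiltered switch fit also called 0. A count of 0 was the only possible outcome in any fit that called 0 of all genes, and such fits add no weight to the count. Of 402 changes of the LIF-STAT3 genes under alternatives, 379 kept their direction and 23 did not. Among the latter, Socs3 after the switch went to 0.0032 with median centring. Gbx2 in late against early passages went to -0.080 with median centring, -0.17 with quantile normalization, -0.047 with the cell line as a replicate block and -0.065 with the feeder mean as a covariate. In wild-type cells Il6st went to 0.015 when the DMR-deleted lines joined the 2i/L group, Lifr to 0.050 with TSa2i-14 only and 0.013 without the libraries high in feeder markers, and Gbx2 to 0.046 with TSa2i-14 only. With each library left out in turn, the wild-type changes ranged from -0.49 to 0.15 for Gbx2, -0.14 to 0.085 for Il6st, -0.079 to 0.027 for Lifr and -0.22 to 0.065 for Pim1, and the late against early changes from -0.45 to 0.54 for Gbx2, -0.79 to 0.14 for Junb and -0.28 to 0.078 for Lifr. Leaving out an early library was added after seeing the data and leaves 1 early library, assumed to vary like the late ones. The cause of these shifts was not tested. Median centring moved every log2 difference by -0.12, 0.17 and -0.12 in the wild-type, switch and passage comparisons.

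The 2 other pathway genes called in wild-type cells became 1 without a filter, with a mean FPKM of at least 5, median centring, quantile normalization or without the libraries high in feeder markers, and 1 to 2 with a library left out (1 without 2i-14 p39 or p50). The 3 called after the switch became 0 without a filter, 1 with quantile normalization, 5 when 2i-14 p18 and p39 were controls too, 6 with p18 and 7 with p39 as the only 2i-14 control, and 1 to 5 with a line left out (5 without 2i-14 or 2i-O48, 1 without 2i-O48-TKO). Without the replicate block 3 were called, 0 of the LIF-STAT3 genes among them, and Bcl3 lost its call (adjusted p = 0.0688). Zfp36 was called in 12 of 18 alternatives and Ptpn6 in 7 of 14. Bcl3 was called in 10 of 14 and Pramel7 in 19 of 19 in wild-type cells and 13 of 14 after the switch.

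Genes called of all tested in wild-type cells were 786, and 374 without a filter, 458 with a mean FPKM of at least 5, 468 with TSa2i-14 only, 229 without the libraries high in feeder markers, 1316 when the DMR-deleted lines joined, and 299 to 846 with a library left out. After the switch they were 672, and 0 without a filter, 369 with a mean FPKM of at least 5, 1505 when 2i-14 p18 and p39 were controls too, 1483 with p18 and 1522 with p39 as the only 2i-14 control, 778 without the block, and 311 to 1461 with a line left out. In late against early passages they were 0, and 0 to 8 with a library left out. The low fragment counts of Jak2, Pim1 and Gbx2 limit what could be detected for them.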
